A study of Mus musculus with 6 samples.

Results

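The genes described here encode the nuclear subunits of the 5 oxidative phosphorylation complexes, the Ndufaf factors that assemble complex I, and 7 coactivators and transcription factors of mitochondrial gene expression. A probe set was a member if the array annotation gave it 1 gene symbol, and that symbol began with Nduf, Uqcr, Atp5 or Cox4 to Cox8, was Sdha, Sdhb, Sdhc, Sdhd or Cyc1, or was 1 of the regulators Ppargc1a, Ppargc1b, Pprc1, Esrra, Nrf1, Gabpa and Tfam. This rule reads gene names only. It gave 197 probe sets of 98 genes, out of 34958 probe sets with 1 symbol, which name 18194 genes. Complex I contributed 78 probe sets of 36 genes, its assembly factors 10 of 8 genes, complex II 9 of 4 genes, complex III 17 of 9 genes, complex IV 35 of 17 genes, complex V 31 of 17 genes and the regulators 17 of 7 genes. A further 10 probe sets that name a member together with another gene were left out.

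The cells were As4.1, a mouse kidney tumour line that makes renin and serves as a model of the juxtaglomerular cell, and their mRNA was read on 6 Affymetrix Mouse Genome 430 2.0 arrays. Cells received an interleukin, hydrogen peroxide or vehicle, with 2 arrays in each group, each from a separate culture. The labels name neither the interleukin nor any dose or duration, and every group is the same single line. The comparisons ask how each treatment altered mRNA levels against vehicle, and how the treatments differed from each other.

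The respiratory chain passes electrons from NADH and succinate through complexes I to IV to oxygen, and complex V (ATP synthase) uses the resulting proton gradient to make ATP. Most of its subunits are encoded in the nucleus, and their promoters are classically bound by nuclear respiratory factor 1 (Nrf1), by GA-binding protein (Gabpa is its DNA-binding subunit) and by the estrogen-related receptor Esrra. The coactivators PGC-1alpha (Ppargc1a), PGC-1beta (Ppargc1b) and PRC (Pprc1) act through these factors, and Tfam carries the programme to mitochondrial DNA. Reactive oxygen species such as hydrogen peroxide arise at the respiratory chain, and cytokines are known to alter mitochondrial metabolism.

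Values were MAS5 signals, on which log2 changes were fitted with limma for the 22519 probe sets in the brighter part of the array, and a probe set was called when its p-value, adjusted by the Benjamini-Hochberg method over all of these, was under 0.05. Of the members, 169 probe sets of 91 genes passed this filter on dim signal, with geometric mean signals between 202.6 and 67545, and 28 probe sets were not tested. Cox4i2, Cox6b2, Cox7a1, Cox7b2, Cox8b, Ndufb4 and Ppargc1a had no tested probe set. A signal is particular to its probe set, so levels are compared between arrays and never between probe sets.

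Some measures of the arrays and of the cells also moved with the treatments. The median signal was 208.2 and 232.3 with interleukin, 192.2 and 217.9 with hydrogen peroxide, and 203.3 on both vehicle arrays, so the hydrogen peroxide arrays lay on both sides of vehicle. The 3' to 5' signal ratio of Actb, which depends on how intact the RNA was and on its labelling, was 1.46 and 1.55 with interleukin, 1.35 and 1.32 with hydrogen peroxide and 1.22 and 1.26 with vehicle, and that of Gapdh was 0.825 to 0.873 throughout. The ratios of the other control transcripts moved further, with Tfrc at 3.05 and 3.95, 3.54 and 2.30, and 1.85 and 2.14, and Pcx at 2.30 and 2.46, 2.89 and 2.03, and 1.66 and 1.59, in the interleukin, hydrogen peroxide and vehicle groups. All treated arrays were thus above both vehicle arrays for Actb, Tfrc and Pcx. Of the 8 markers of the line, 6 were measured, with Kcnj8, Abcc9, Pdgfrb and Acta2 tested and Cnn1 and Rgs5 dim, and their signals summed to 26990 to 32997, 18785 to 19424 and 19351 to 19640 in the interleukin, hydrogen peroxide and vehicle groups. Of the 4 tested, Acta2 and Pdgfrb were called higher with interleukin, and Kcnj8 and Abcc9 lower with hydrogen peroxide (log2 changes -1.65 and -0.91). The 6 leukocyte markers summed to 6342 to 7095, 4322 to 4540 and 3634 to 3724 in the same order of groups, with Ptprc at or below 125.7 on every array. Of these Cd14 was called higher with interleukin and Cd68 with both treatments (1.25 and 1.04). The 5 endothelial markers summed to 8371 to 11819, 10797 to 11630 and 13417 to 15931, nearly all of it Kdr, which was called lower with interleukin, with Pecam1 at or below 48.7, and the 7 epithelial markers to 1023 to 1378, 992.1 to 1088 and 1106 to 1282. No marker was at 0, and the part of these shifts in the results was not tested.

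Interleukin lowered the coactivator Ppargc1b about 5-fold and raised the muscle-type cytochrome oxidase subunit Cox6a2 about 3-fold, while the other called subunits changed by less than 1.5-fold. Both of the larger folds rest partly on dim signals. Ppargc1b with interleukin read below the filter limit (a geometric mean signal of 193.7), and Cox6a2 with vehicle read near that limit. Of the 169 tested member probe sets 14 were called under interleukin, 3 higher and 11 lower, which is 8.28%, against 16.1% of all tested probe sets (7.58% called higher and 8.52% called lower). The called subunits were Cox6a2 and Cox7a2l (2 probe sets), which rose, and Ndufa5, Sdhb, Uqcr10, Uqcrb, Cox5b, Cox7a2, Atp5a1, Atp5g1 and Atp5j2, which fell, each by a log2 change no lower than -0.42. Among the regulators, Ppargc1b and 1 of the 2 Gabpa probe sets fell. The median log2 change of the members was -0.09 and 73.4% were below 0, beside a median of -0.02 and 51.8% below 0 over all tested probe sets. Because fewer cells and less RNA per cell cannot be told apart in bulk RNA, and signals of all arrays share one trimmed mean, these are changes relative to the rest of each sample's RNA.

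Leaving out 1 array moved the count of members called under interleukin to 4 without vehicle array 1, 5 without vehicle array 2, 9 without interleukin array 1 and 12 to 14 without each of the others. All probe sets called numbered 1554 without vehicle array 1 and 1573 without vehicle array 2, against 3627 with all arrays. Cox6a2, Ppargc1b and the Gabpa probe set kept their calls in all of these fits, and the brightest Cox7a2l probe set lost its call only without vehicle array 2, at a log2 change of 0.39.

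Hydrogen peroxide raised Cox6a2 about 4-fold and Esrra 1.72-fold, and lowered Ndufa4 and Atp5l modestly. These 4 calls, 2 higher and 2 lower, are 2.37% of the tested members, against 5.69% of all tested probe sets (3.05% called higher and 2.65% called lower). After quantile normalization the calls of Esrra and Ndufa4 were lost. With each array centred on its 75th percentile of signal, the split was 2 higher and 4 lower among members and 602 higher and 879 lower among all probe sets, beside 686 higher and 596 lower as reported. The median change of the members was -0.08 with 65.7% below 0, beside 0.02 and 47.7% over all tested probe sets. Without vehicle array 1, vehicle array 2 or hydrogen peroxide array 2, Cox6a2 was the only member called, without hydrogen peroxide array 1 there were 2 calls, and without either interleukin array there were 9. Both comparisons use the same vehicle arrays, so their similarities are not independent.

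Between the treatments, 3 members were called (1.78%), against 8.82% of all tested probe sets (4.95% called higher and 3.87% called lower with interleukin). Ndufv3 and Cox6c were higher, and Atp5g1 lower, with interleukin than with hydrogen peroxide. The split was 1 higher and 4 lower after quantile normalization and 2 higher and 0 lower after centring on the 75th percentile. No member was called without vehicle array 1, vehicle array 2, hydrogen peroxide array 2 or interleukin array 2. The median difference was -0.03, beside -0.05 over all tested probe sets. The plot of log2 changes by complex shows how few members stood clear of the rest.

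**Figure D1:**
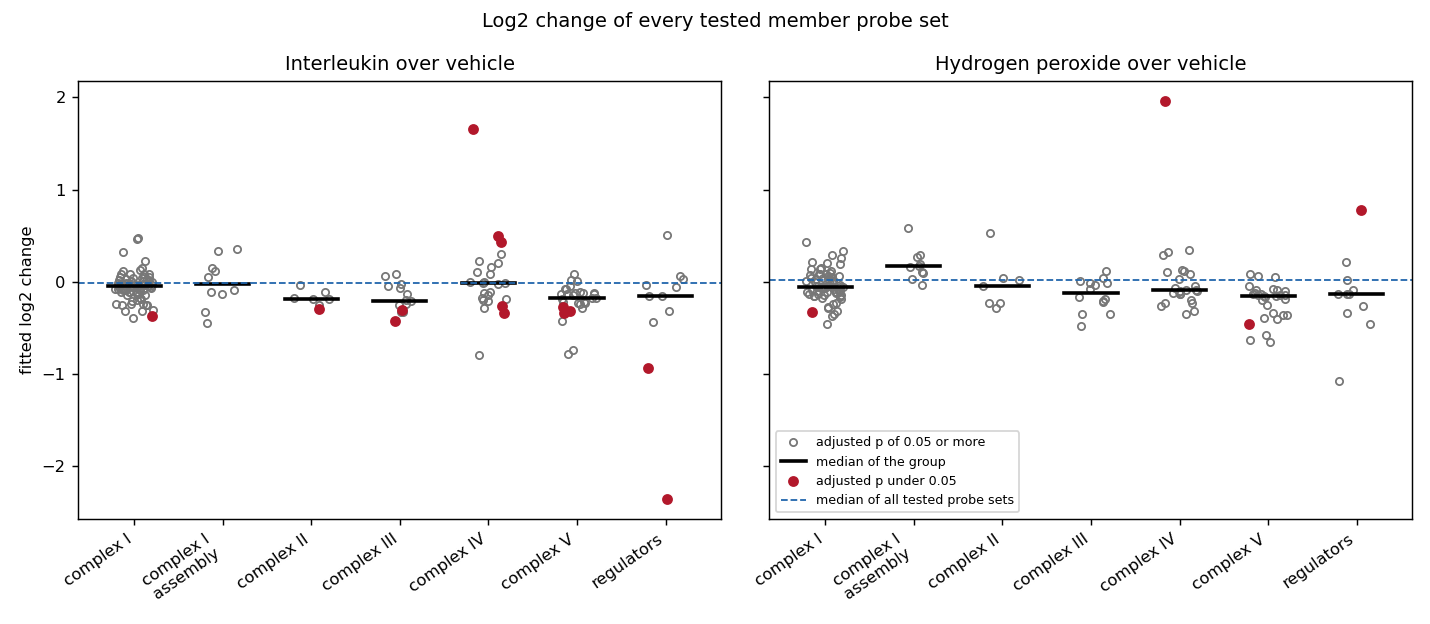
Fitted log2 change of each of the 169 tested member probe sets (points) by respiratory complex, for interleukin over vehicle (left) and hydrogen peroxide over vehicle (right), with called probe sets filled, group medians as black bars and the median of all tested probe sets as a dashed line. Most points lie close to 0, while Cox6a2 stands at 1.66 and 1.96 and Ppargc1b at -2.35 and -1.07.

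Promoters of the members were scanned for the short recognition sequences of the regulators among them, because these factors are the known link between the coactivators and the chain. RefSeq promoter sequences (GRCm38.p6) were found for 80 of the 98 genes, as 86 promoters, and the 250 bases before each start were read on both strands. GCATGCG, the core of the Nrf1 site, was present in 8 of 72 promoters of complex I to V subunits (11.1%), against 3.02% of 32851 promoters in the table. CCGGAAG, bound by GA-binding protein and other ETS factors, was present in 12 of the 72 (16.7%), against 6.91%. AAGGTCA, bound by the estrogen-related receptors, was present in 5 of the 72 (6.94%), against 4.08%. GCATGCG and its reverse complement overlap in CGCATGCG and then count as a match on each strand. Of the 15 subunit genes called in any comparison, 11 had an entry, and 2 of these, Sdhb and Atp5l, held any of the 3 motifs. Both held GCATGCG or CCGGAAG, as did 17 of all 67 subunit genes with an entry (25.4%) and 10.8% of all genes with promoters. Shown are the promoters of the 2 regulators called against vehicle that had an entry and, from each complex, of the subunit with an entry that was called against vehicle at the smallest p, with every match in capitals, 5′ to 3′ along the gene's strand and ending at the last base before the start.
Gabpa: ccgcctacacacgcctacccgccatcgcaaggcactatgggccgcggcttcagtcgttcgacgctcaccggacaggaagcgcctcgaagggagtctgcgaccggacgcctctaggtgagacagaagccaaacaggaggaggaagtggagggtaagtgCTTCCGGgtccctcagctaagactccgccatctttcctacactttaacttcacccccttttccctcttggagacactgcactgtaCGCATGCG
Esrra: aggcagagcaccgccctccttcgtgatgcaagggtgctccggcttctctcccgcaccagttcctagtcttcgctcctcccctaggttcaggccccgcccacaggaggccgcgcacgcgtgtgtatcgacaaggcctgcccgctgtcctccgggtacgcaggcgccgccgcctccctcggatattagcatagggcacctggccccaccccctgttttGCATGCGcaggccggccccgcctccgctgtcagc
Ndufa4: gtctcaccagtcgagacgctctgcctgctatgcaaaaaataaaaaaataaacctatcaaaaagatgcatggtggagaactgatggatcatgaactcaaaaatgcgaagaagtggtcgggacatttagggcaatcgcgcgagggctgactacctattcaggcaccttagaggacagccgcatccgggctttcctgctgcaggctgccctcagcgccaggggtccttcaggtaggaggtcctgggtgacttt
Sdhb: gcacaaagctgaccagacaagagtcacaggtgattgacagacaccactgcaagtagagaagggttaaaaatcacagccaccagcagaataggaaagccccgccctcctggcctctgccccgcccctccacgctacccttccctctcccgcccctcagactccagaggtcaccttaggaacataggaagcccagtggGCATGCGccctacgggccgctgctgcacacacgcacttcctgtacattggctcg
Uqcr10: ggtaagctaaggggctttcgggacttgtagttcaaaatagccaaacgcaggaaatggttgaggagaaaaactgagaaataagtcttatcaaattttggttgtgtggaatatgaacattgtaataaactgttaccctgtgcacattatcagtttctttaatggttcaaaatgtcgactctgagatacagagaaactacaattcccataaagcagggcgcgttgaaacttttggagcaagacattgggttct
Cox7a2l: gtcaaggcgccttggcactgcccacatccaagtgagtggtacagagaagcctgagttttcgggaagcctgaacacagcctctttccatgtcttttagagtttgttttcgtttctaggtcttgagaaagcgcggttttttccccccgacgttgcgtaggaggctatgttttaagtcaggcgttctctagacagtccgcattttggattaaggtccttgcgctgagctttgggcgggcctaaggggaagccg
Atp5l: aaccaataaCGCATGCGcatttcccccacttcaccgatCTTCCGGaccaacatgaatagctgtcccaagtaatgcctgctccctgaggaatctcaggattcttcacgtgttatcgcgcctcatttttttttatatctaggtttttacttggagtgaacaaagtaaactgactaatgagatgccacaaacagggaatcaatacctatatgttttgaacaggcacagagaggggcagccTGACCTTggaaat

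The Gabpa promoter (chr16:84834874-84835123, plus strand) holds CGCATGCG in its last 8 bases, a match on both strands, and a reverse-strand ETS match that begins 93 bases before the start. A single Nrf1 match lies 34 bases before the start of Esrra (chr19:6921809-6922058, minus strand) and another 54 bases before that of Sdhb (chr4:140961021-140961270, plus strand). Atp5l (chr9:44920743-44920992, minus strand) holds all 3 kinds of match, with CGCATGCG 241 bases, the ETS match 212 bases and the estrogen-related receptor match 13 bases before the start. None of these motifs is present in this window of Ndufa4 (chr6:11907451-11907700, minus strand), Uqcr10 (chr11:4704345-4704594, minus strand) or Cox7a2l (chr17:83514334-83514583, minus strand). A match is a description of sequence and was not tested for binding.

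Of the regulators, the coactivator PGC-1beta showed the widest range. Ppargc1b had signals of 116.9 and 127.7 with interleukin, 205.5 and 428.5 with hydrogen peroxide, and 607.1 and 640.6 with vehicle. The interleukin signals were under the filter limit of 193.7, which the probe set passed on its mean over all arrays. Both interleukin arrays lay below both hydrogen peroxide arrays, which lay below both vehicle arrays. Interleukin lowered it 5.10-fold (log2 change -2.35 ± 0.38 SE, limma adjusted p = 0.00218), whereas the change of -1.07 ± 0.38 with hydrogen peroxide was not called (adjusted p = 0.124), nor was the difference of -1.28 between the treatments (adjusted p = 0.0615). For PRC, a related coactivator, Pprc1 signals were 3186.8 and 3893.6 with interleukin, 3581.4 and 3722.8 with hydrogen peroxide, and 3557.3 and 3649.2 with vehicle, and the groups overlapped (log2 changes -0.03, with a 95% interval of -0.31 to 0.25, and 0.02, with an interval of -0.26 to 0.30). The hydrogen peroxide change turned to -0.03 when arrays were centred on their 75th percentile. The 5 probe sets of Ppargc1a were too dim to test, at 1.6 to 156.9 on all arrays.

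GA-binding protein alpha gave different results on its 2 probe sets. On the dimmer, Gabpa read 1330.1 and 1310.8 with interleukin, 1582.4 and 2155.9 with hydrogen peroxide, and 2613.7 and 2442.4 with vehicle, so that each treatment lay wholly below vehicle. This probe set fell 1.91-fold with interleukin (log2 change -0.94 ± 0.16 SE, adjusted p = 0.00355) and was not called with hydrogen peroxide (-0.45, adjusted p = 0.135). On the brighter, signals were 7028.5 and 6372.9, 5757.2 and 5919.2, and 6514.9 and 6298.4 in the interleukin, hydrogen peroxide and vehicle groups. There the interleukin and vehicle arrays overlapped, with log2 changes of 0.06 (adjusted p = 0.725) and -0.13 (adjusted p = 0.481). Which transcript each probe set reads was not examined here.

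Esrra, the orphan receptor that partners PGC-1 coactivators, ran the other way. Its signals were 1157.4 and 1352.0 with interleukin, 1591.9 and 1430.6 with hydrogen peroxide, and 1040.6 and 743.4 with vehicle. All treated arrays were above both vehicle arrays. The rise with hydrogen peroxide was called (log2 change 0.78 ± 0.19 SE, adjusted p = 0.0419), and the change of 0.51 ± 0.19 with interleukin was not (adjusted p = 0.101). Its call was lost without any 1 of the vehicle or hydrogen peroxide arrays, over a log2 range of 0.54 to 1.02. A second probe set of Esrra, too dim to test, read 108.7 and 122.8 with interleukin, 287.4 and 264.1 with hydrogen peroxide, and 184.9 and 179.8 with vehicle, with interleukin below vehicle there.

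The genes for Nrf1 and Tfam, the nuclear respiratory factor and the mitochondrial transcription factor, were not called on any probe set. The brightest of 4 Nrf1 probe sets read 1201.0 and 1478.6 with interleukin, 1531.8 and 1596.5 with hydrogen peroxide, and 1529.9 and 1791.6 with vehicle. Its log2 changes were -0.31 (95% interval -0.67 to 0.04) and -0.08 (-0.44 to 0.27), and the other 3 probe sets ranged between -0.43 and 0.03 with interleukin and between -0.33 and 0.22 with hydrogen peroxide. Tfam signals on the brighter of 2 probe sets were 4789.0 and 4548.9 with interleukin, 4762.2 and 4777.6 with hydrogen peroxide, and 5146.2 and 5267.0 with vehicle. Each treatment lay below vehicle by a small margin, at log2 changes of -0.16 (interval -0.39 to 0.07) and -0.13 (-0.35 to 0.10), and the dimmer probe set gave -0.15 and -0.14. The signs of the small changes on 3 of the Nrf1 probe sets and the dimmer Tfam probe set turned when certain single arrays were left out.

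**Figure D2:**
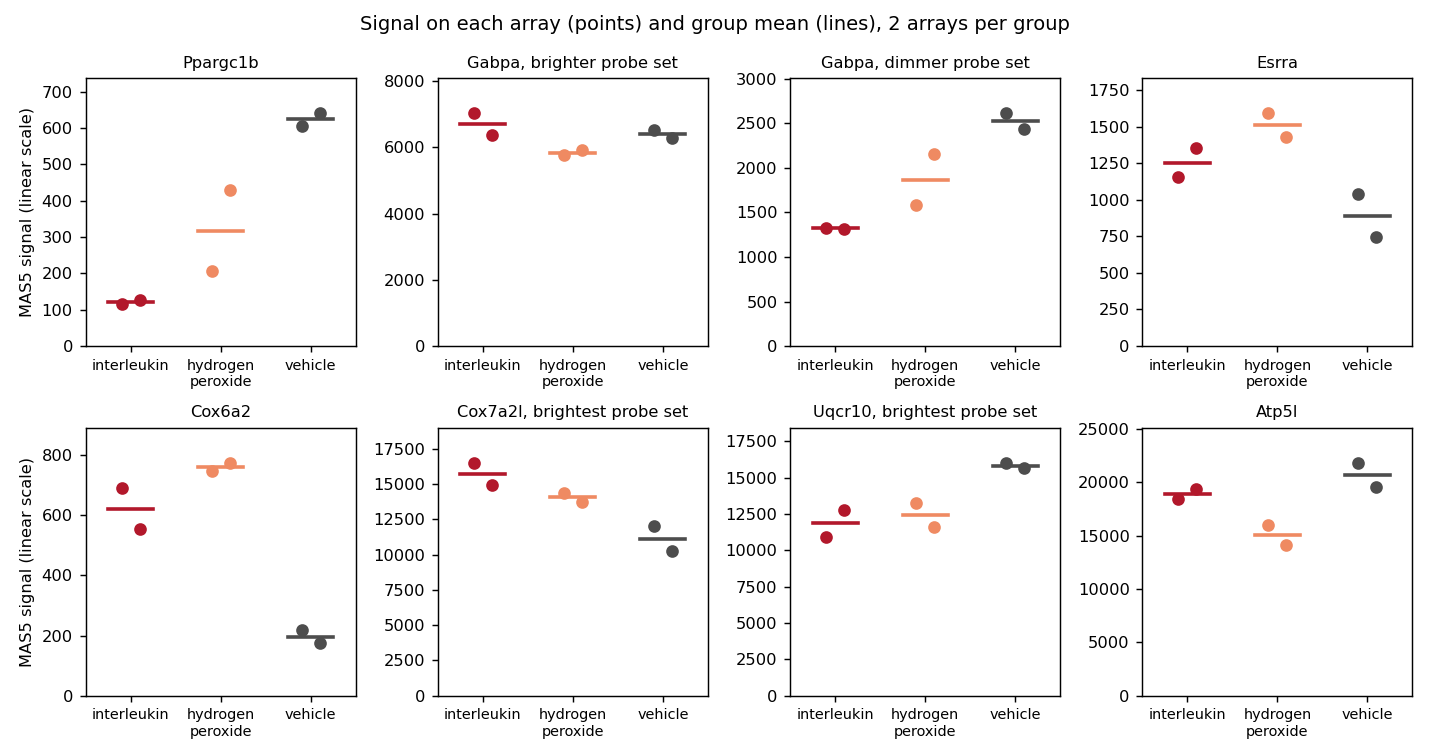
MAS5 signal (linear scale, vertical axes starting at 0) on each array (points) with group means (lines) for 4 regulator and 4 subunit probe sets, with 2 arrays in each of the interleukin, hydrogen peroxide and vehicle groups. Ppargc1b lies at 116.9 and 127.7 with interleukin against 607.1 and 640.6 with vehicle, and Cox6a2 at 689.5 and 553.8 with interleukin and 747.9 and 772.7 with hydrogen peroxide against 218.6 and 174.2 with vehicle.

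Most subunit probe sets gave bright signals, 124 of 170 at a mean log2 of 12 or more, and most of their changes were small. The log2 changes ranged from -0.79 to 1.66 with interleukin and from -0.65 to 1.96 with hydrogen peroxide. For the 148 tested probe sets of complexes I to V, which cover 77 genes, the median log2 change was -0.09 under each treatment, beside -0.02 with interleukin and 0.02 with hydrogen peroxide over all tested probe sets. With interleukin 9 were called lower and 3 higher, and with hydrogen peroxide 2 lower and 1 higher. Groups lying apart without overlap were far more frequent than calls. With interleukin 64 of the 148 lay wholly below vehicle and 19 wholly above, and with hydrogen peroxide 64 and 12. The share of all tested probe sets that lay apart was not counted, so such separation is a description only. Among the subunit probe sets with a mean log2 signal of 12 or more, 8.87% were called with interleukin and 1.61% with hydrogen peroxide, against 21.8% and 9.75% of all 5630 probe sets that bright. Their medians were -0.08 with interleukin and -0.09 with hydrogen peroxide, beside -0.04 and -0.01 over all probe sets that bright. At an unadjusted limma p under 0.05, 28 of the 148 were lower and 8 higher with interleukin, beside 16.3% lower and 13.8% higher over all tested probe sets. With hydrogen peroxide 26 were lower and 4 higher, beside 10.3% and 12.1%. By complex, the medians were -0.05, -0.18, -0.20, -0.02 and -0.17 for complexes I to V with interleukin, and -0.06, -0.05, -0.12, -0.09 and -0.15 with hydrogen peroxide.

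Array by array, the median difference of all subunits from the vehicle mean was -0.12 and -0.05 with interleukin, -0.02 and -0.15 with hydrogen peroxide, and 0.03 and -0.03 with vehicle. The spread between arrays of one group was thus about as large as the shift. Complex V was below the vehicle mean on all 4 treated arrays, at -0.19 and -0.12 with interleukin and -0.10 and -0.20 with hydrogen peroxide, against 0.02 and -0.02 on the vehicle arrays. Complex III read -0.21 and -0.15 with interleukin and -0.03 and -0.13 with hydrogen peroxide, against 0.04 and -0.04 with vehicle. Complex II was -0.13 and -0.14 on the interleukin arrays but 0.03 and -0.24 on the hydrogen peroxide arrays. The 3' to 5' ratios of Actb, Tfrc and Pcx, given above, were higher on all 4 treated arrays than on both vehicle arrays, up to 3.95 against 1.85 and 2.14 for Tfrc, and their part in these medians was not tested.

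**Figure D3:**
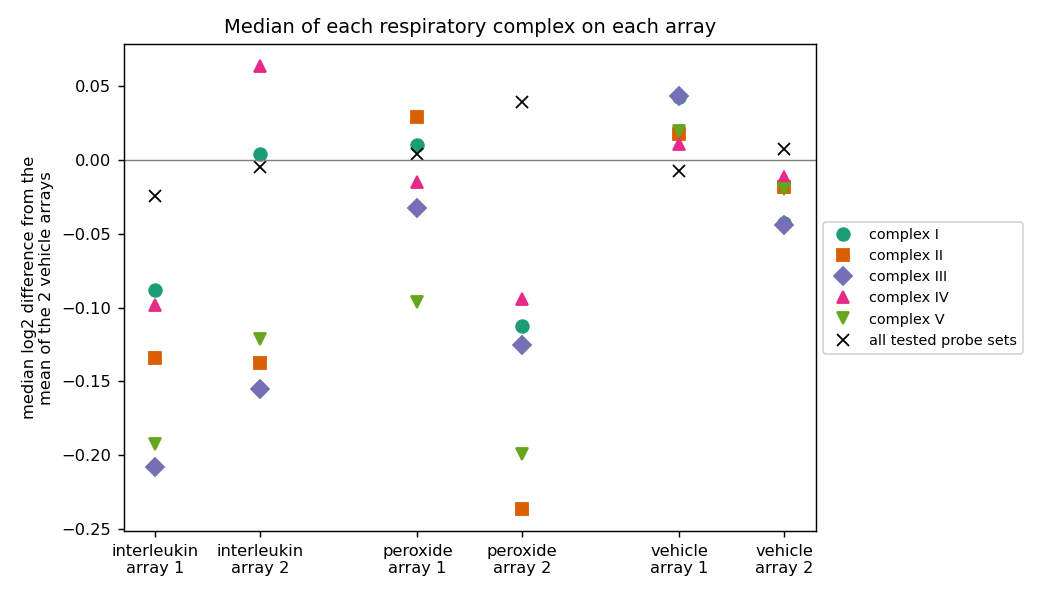
Median log2 difference of each complex from the mean of the 2 vehicle arrays (vertical axis), on each of the 6 arrays (horizontal axis), with crosses for all tested probe sets. Complex V (down-pointing triangles) lies between -0.10 and -0.20 on the 4 treated arrays, while complex II (squares) is at 0.03 on one hydrogen peroxide array and -0.24 on the other.

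In complex I (NADH dehydrogenase), of 73 tested probe sets of 35 genes, 1 was called lower with interleukin and 1 lower with hydrogen peroxide, and none was called higher. That is 1.37% under each treatment, beside 16.1% and 5.69% of all tested probe sets and 21.8% and 9.75% of those with a mean log2 signal of 12 or more. Ndufa5, an accessory subunit, read 9888.4 and 11386.4 with interleukin, 11913.8 and 10651.2 with hydrogen peroxide, and 13742.4 and 13573.9 with vehicle on its dimmer probe set, where each treatment lay below vehicle. It fell by 0.36 on the log2 scale with interleukin (adjusted p = 0.0344), and the brighter probe set was at -0.24 without being called (adjusted p = 0.113). Ndufa4, long counted in complex I and now placed with cytochrome oxidase, read 21674.9 and 22294.6 with interleukin, 21595.0 and 20128.1 with hydrogen peroxide, and 26124.1 and 25951.3 with vehicle. All treated arrays were below vehicle, and the fall was called with hydrogen peroxide (log2 change -0.32, adjusted p = 0.038) but not with interleukin (-0.24, adjusted p = 0.0552). Both calls were lost without certain arrays: that of Ndufa5 without either vehicle array or interleukin array 1, and that of Ndufa4 without any 1 of the vehicle or hydrogen peroxide arrays.

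Ndufv3, an accessory subunit of the NADH-binding module, separated the treatments. It read 13883.8 and 15309.1 with interleukin, 11852.6 and 10574.4 with hydrogen peroxide, and 12821.0 and 12081.6 with vehicle, with the vehicle arrays between the treated groups. The difference of interleukin over hydrogen peroxide was 0.38 on the log2 scale (adjusted p = 0.0351), while the changes against vehicle were 0.23 (adjusted p = 0.141) and -0.15 (adjusted p = 0.394). Its call was lost without either vehicle array, hydrogen peroxide array 2 or interleukin array 2. At the edges of the complex, none of the other extremes was called. With interleukin these were Ndufa4l2 at 0.48, on signals of 851.9 and 1420.9 against 834.4 and 744.5 with vehicle, and a dim probe set of Ndufab1, the acyl carrier protein, at -0.40. With hydrogen peroxide they were a probe set of Ndufs4 at 0.43 and another of Ndufab1 at -0.46. The Ndufa4l2 change ranged between 0.11 without interleukin array 2 and 0.85 without interleukin array 1, where it was called (adjusted p = 0.0365).

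The 8 Ndufaf genes, whose products help build complex I without staying in it, had no probe set called by limma among 10 tested, where an unadjusted p under 0.05 was reached by 3 with interleukin (1 higher, 2 lower) and 2 with hydrogen peroxide (both higher), beside the shares of all probe sets given above for that threshold. Their median was -0.02 with interleukin and 0.17 with hydrogen peroxide, and -0.24 between the treatments. On the brightest probe set of each gene, the hydrogen peroxide change was positive for all 8, beside 59.1% positive and a median of 0.06 over the brightest probe sets of all genes. Those named here were chosen after their values were seen. Ndufaf6 read 1155.3 and 874.8 with interleukin, 1140.6 and 1212.4 with hydrogen peroxide, and 802.4 and 762.4 with vehicle (log2 change with hydrogen peroxide 0.59, adjusted p = 0.0891). Ndufaf4 read 1441.4 and 1643.0, 2140.9 and 2159.4, and 2287.8 and 1924.4 in the interleukin, hydrogen peroxide and vehicle groups (log2 change with interleukin -0.45, adjusted p = 0.0618). The interleukin arrays of Ndufaf4 lay below all others.

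In complex II (succinate dehydrogenase), the iron-sulfur subunit Sdhb fell with interleukin. Its signals were 21691.2 and 23831.3 with interleukin, 25124.5 and 22526.9 with hydrogen peroxide, and 27864.5 and 27871.2 with vehicle, so that all treated arrays were below vehicle. The log2 change was -0.29 with interleukin (adjusted p = 0.0407), and -0.23 with hydrogen peroxide, which was not called (adjusted p = 0.145). The interleukin call was lost without either vehicle array or interleukin array 1. None of the other 6 tested probe sets was called. The share called with interleukin, 14.3%, is near the 16.1% of all tested probe sets. The flavoprotein subunit Sdha was lowest with hydrogen peroxide, at -0.28 on its dimmer probe set. The membrane anchor Sdhc was the highest under both treatments, at -0.03 with interleukin on its brighter probe set and 0.53 with hydrogen peroxide on the dimmer. That dimmer set read 3100.3 and 1411.7 with interleukin, 3372.8 and 3516.8 with hydrogen peroxide, and 2523.1 and 2251.7 with vehicle, so the interleukin arrays lay on both sides of vehicle.

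In complex III (the cytochrome bc1 complex), 2 small subunits fell with interleukin among 14 tested probe sets of 9 genes, and none was called with hydrogen peroxide, where 4 had an unadjusted limma p under 0.05, all lower. The 2 calls are 14.3% of the tested probe sets of the complex, near the 16.1% of all tested probe sets, and 10.3% of all were lower with hydrogen peroxide at that unadjusted threshold. Uqcr10 read 10928.9 and 12781.6 with interleukin, 13244.5 and 11637.1 with hydrogen peroxide, and 16011.3 and 15639.0 with vehicle on its brightest probe set. All treated arrays were below vehicle, at a log2 change of -0.42 ± 0.10 SE with interleukin (adjusted p = 0.0206) and -0.35 ± 0.10 with hydrogen peroxide (adjusted p = 0.0771). Its other 2 probe sets, at -0.32 and -0.24 with interleukin and -0.47 and -0.35 with hydrogen peroxide, also had all treated arrays below vehicle without being called. Uqcrb, which lines the quinone-binding region, was called on its dimmer probe set only. There it read 20464.8 and 20131.2 with interleukin, 23948.9 and 23463.2 with hydrogen peroxide, and 24845.9 and 25244.5 with vehicle (log2 change -0.30, adjusted p = 0.0192, and -0.08, adjusted p = 0.574). On the brighter the change was -0.03 under each treatment. Both calls were lost without either vehicle array, that of Uqcr10 also without interleukin array 1 and that of Uqcrb without interleukin array 2. The highest members were Uqcrq at 0.09 with interleukin and a probe set of the core protein gene Uqcrc2 at 0.12 with hydrogen peroxide.

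Complex IV (cytochrome c oxidase) held all the subunits called higher than vehicle. Of 25 tested probe sets of 12 genes, 3 were called higher and 2 lower with interleukin, and 1 higher with hydrogen peroxide. These shares of 20% and 4% are near the 16.1% and 5.69% of all tested probe sets. Cox6a2, the isoform of subunit VIa found in heart and skeletal muscle, read 689.5 and 553.8 with interleukin, 747.9 and 772.7 with hydrogen peroxide, and 218.6 and 174.2 with vehicle. Every treated array was well above both vehicle arrays, whose signals were near the filter limit of 193.7. The rise was 3.17-fold with interleukin (log2 change 1.66 ± 0.25 SE, adjusted p = 0.00144) and 3.90-fold with hydrogen peroxide (1.96 ± 0.25, adjusted p = 0.00225), and the treatments did not differ by a called amount (-0.30, 95% interval -0.85 to 0.25). A second probe set, too dim to test, read 128.7 and 45.1, 60.2 and 39.7, and 21.7 and 18.5 in the interleukin, hydrogen peroxide and vehicle groups. The ubiquitous isoform Cox6a1 was at -0.02 with interleukin and -0.12 with hydrogen peroxide on its brightest probe set and was not called.

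Cox7a2l, which joins complexes III and IV into supercomplexes, rose with interleukin. Its brightest probe set read 16490.9 and 14964.9 with interleukin, 14362.8 and 13758.4 with hydrogen peroxide, and 12000.3 and 10259.8 with vehicle. The groups stood in that order without overlap. The log2 change was 0.50 ± 0.10 SE with interleukin (adjusted p = 0.00755) and 0.34 ± 0.10 with hydrogen peroxide (adjusted p = 0.0759). A second probe set gave 11020.5 and 11248.0 with interleukin, 10363.4 and 10363.3 with hydrogen peroxide, and 8266.0 and 8237.1 with vehicle (0.43, adjusted p = 0.00761, and 0.33, adjusted p = 0.0545), and the third, not called, was at 0.30 and 0.29. All 3 probe sets had every treated array above vehicle. The interleukin call was lost without vehicle array 2 on the first of these and without either vehicle array on the second. Its paralog Cox7a2, the subunit VIIa form of non-muscle tissue, moved the other way on its dimmer probe set, at 27758.8 and 30273.9 with interleukin, 30817.9 and 28833.9 with hydrogen peroxide, and 34845.9 and 34781.1 with vehicle (log2 change -0.26 with interleukin, adjusted p = 0.0415). The brighter Cox7a2 probe set was at -0.19 (adjusted p = 0.123), and the call on the dimmer was lost when any 1 array other than interleukin array 2 was left out.

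Cox5b, a peripheral subunit on the matrix side of the oxidase, was called on 1 of its 5 tested probe sets. That one read 19905.5 and 18257.8 with interleukin, 24427.0 and 22322.5 with hydrogen peroxide, and 24758.8 and 23528.9 with vehicle, where the interleukin arrays lay below all others (log2 change -0.34, adjusted p = 0.0215). The other 4 had changes between -0.28 and 0.00, and the call was lost without either vehicle array or interleukin array 2. Cox6c differed between the treatments, at 45235.1 and 47787.6 with interleukin, 38629.6 and 39074.6 with hydrogen peroxide, and 40693.2 and 42741.0 with vehicle. The difference was 0.26 on the log2 scale (adjusted p = 0.0427), with vehicle between the treatments, and the call was kept without interleukin array 1 and lost without each of the other 5. The lowest probe sets of the complex, neither called, were Cox7c at -0.79 with interleukin on signals of 221.5 and 122.3 against 317.9 and 255.8 with vehicle, and a dim Cox5b probe set at -0.35 with hydrogen peroxide.

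Other tissue isoforms of the oxidase were mostly dim. Cox4i1, the common form of subunit IV, averaged 32127 ± 1193 with interleukin, 32887 ± 2598 with hydrogen peroxide and 32132 ± 1851 with vehicle (SD, n = 2 each). Cox4i2, the form known from lung, was not tested, at 173.2 ± 60.5 with interleukin, 118.3 ± 21.5 with hydrogen peroxide and 81.8 ± 13.4 with vehicle, where both treatments lay above vehicle. Cox6b1 was at -0.11 with interleukin and -0.20 with hydrogen peroxide, and its testis form Cox6b2 averaged 12.2, 43.8 and 10.6 in the interleukin, hydrogen peroxide and vehicle groups. Cox7a1, the muscle form of subunit VIIa, averaged 117.4 ± 79.4, 160.4 ± 31.2 and 74.5 ± 77.2 in that order. Cox7b2 read 58.6 ± 2.55 with interleukin, 6.9 ± 4.95 with hydrogen peroxide and 6.9 ± 4.67 with vehicle, and Cox8b averaged 67.6, 47.0 and 29.7. Of the subunit VIII forms that were tested, Cox8a was at -0.21 and -0.10 and Cox8c at 0.22 and 0.09 with interleukin and hydrogen peroxide, none of them called.

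Complex V (ATP synthase) had most of its probe sets below vehicle under both treatments. Of 29 tested probe sets of 17 genes, 26 were below 0 with interleukin and 26 with hydrogen peroxide (89.7%), beside 51.8% and 47.7% of all tested probe sets and 56.5% and 51.7% of those with a mean log2 signal of 12 or more. This was not particular to complex V. The shares in complexes I to IV were 69.9%, 100%, 85.7% and 60% with interleukin. With hydrogen peroxide they were 61.6%, 57.1%, 78.6% and 64%. Of the 29, 3 were called lower with interleukin, 1 was called lower with hydrogen peroxide and none was called higher, where 8.52% and 2.65% of all tested probe sets were called lower. Atp5a1, the alpha subunit of the catalytic head, read 11561.6 and 12490.1 with interleukin, 13763.1 and 14356.6 with hydrogen peroxide, and 14826.1 and 15037.6 with vehicle on its second probe set. The groups stood in that order, at log2 changes of -0.31 (adjusted p = 0.0324) and -0.09 (adjusted p = 0.598), and the brightest probe set gave -0.24 (adjusted p = 0.0768) and -0.08. Atp5j2, subunit f of the membrane part, read 28183.0 and 30955.2 with interleukin, 32888.4 and 29821.8 with hydrogen peroxide, and 35749.2 and 35470.7 with vehicle on its second probe set (-0.27, adjusted p = 0.0455, and -0.19, adjusted p = 0.207). Its brightest was at -0.13 under each treatment, and a dim one held the lowest interleukin change of the complex, -0.78, without a call.

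Atp5g1, 1 of 3 genes for the c subunit of the rotor ring, separated the treatments. It read 7297.6 and 7581.2 with interleukin, 10209.9 and 9324.7 with hydrogen peroxide, and 9059.5 and 9669.1 with vehicle. The interleukin arrays lay below all others, and the other 2 groups overlapped. The log2 change was -0.33 with interleukin against vehicle (adjusted p = 0.0412) and -0.39 against hydrogen peroxide (adjusted p = 0.0305), and both calls were lost when any 1 array was left out. Its sister genes were not called, with Atp5g2 at 0.01 and 0.09 (a dim probe set at -0.74 and -0.39) and Atp5g3 at -0.12 and -0.13 with interleukin and hydrogen peroxide. Atp5l, subunit g, read 18424.1 and 19347.7 with interleukin, 16001.1 and 14065.5 with hydrogen peroxide, and 21785.4 and 19501.0 with vehicle. Here the hydrogen peroxide arrays were lowest (log2 change -0.46 ± 0.09 SE, adjusted p = 0.0211), interleukin was at -0.13 (adjusted p = 0.41), and the difference between the treatments was not called (adjusted p = 0.0565).

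The calls of Atp5a1 and Atp5j2 were lost without either vehicle array or interleukin array 1, and that of Atp5l without either vehicle array or hydrogen peroxide array 2. The remaining extremes of the complex were uncalled. Atp5mpl was highest with interleukin at 0.08 and Atp5g2 with hydrogen peroxide at 0.09, while a dim Atp5a1 probe set was lowest with hydrogen peroxide at -0.65, on signals of 501.4 and 311.5 against 514.2 and 745.3 with vehicle.

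Other mitochondrial genes were described on the brightest probe set of each gene, where 16.4% of the brightest probe sets of all genes were called with interleukin and 6.99% with hydrogen peroxide. In the tricarboxylic acid cycle and pyruvate dehydrogenase list, 3 of 21 tested genes rose and 1 fell with interleukin, and 2 rose with hydrogen peroxide (medians 0.02 and 0.01). Pdk1, which encodes an inhibitory kinase of pyruvate dehydrogenase, read 8511.6 and 7375.7 with interleukin, 4808.0 and 4682.6 with hydrogen peroxide, and 3476.7 and 3278.0 with vehicle, in that order without overlap. Its log2 change was 1.23 ± 0.11 SE with interleukin (adjusted p = 6.29e-05) and 0.49 ± 0.11 with hydrogen peroxide (adjusted p = 0.0322), and the treatments differed by 0.74 (adjusted p = 0.00246). The next 2 Pdk1 probe sets in brightness were at 1.11 and 1.08 with interleukin, both called, and at 0.18 and 0.21 with hydrogen peroxide, neither called. Pdk3, a second such kinase, rose by 0.78 on the log2 scale with interleukin (adjusted p = 0.00164), and the succinyl-CoA ligase gene Suclg2 rose under both (0.47, adjusted p = 0.0373, and 0.52, adjusted p = 0.0484), though its second probe set, at 0.22 and 0.42, was not called. Idh3a, the catalytic subunit of isocitrate dehydrogenase, fell by 0.41 with interleukin (adjusted p = 0.0117).

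Among 8 tested genes for uncouplers, carriers and electron sinks, Sod2 and Sqor rose with interleukin and none was called with hydrogen peroxide (medians -0.01 and -0.09). Sod2, the superoxide dismutase of the matrix, read 34349.9 and 34189.1 with interleukin, 7464.5 and 7079.8 with hydrogen peroxide, and 6979.5 and 6521.3 with vehicle. Only the interleukin arrays were high, at a log2 change of 2.34 (adjusted p = 1.8e-07) and a difference of 2.24 from hydrogen peroxide (adjusted p = 2.93e-07). Sqor, which feeds electrons from sulfide into the quinone pool, rose by 1.12 on the log2 scale (adjusted p = 0.000462).

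Mitochondrial ribosomal protein genes showed 7 lower and 1 higher of 76 tested with interleukin, and 2 lower with hydrogen peroxide (medians -0.06 and 0.04). Mrpl57 read 7059.8 and 6450.2 with interleukin, 7661.7 and 6850.1 with hydrogen peroxide, and 10649.1 and 10752.6 with vehicle, a log2 change of -0.67 (adjusted p = 0.00168) and -0.56 (adjusted p = 0.0117). Mrpl18 also fell under both treatments (-0.53, adjusted p = 0.00644, and -0.44, adjusted p = 0.0356), while Mrpl50 (-0.69) and Mrpl49 (-0.66) fell with interleukin. Of 17 genes for upkeep and transcription of mitochondrial DNA, the protease gene Lonp1 rose under both treatments, at 7422.0 and 7266.8 with interleukin, 7948.6 and 7909.6 with hydrogen peroxide, and 5295.6 and 5246.5 with vehicle (0.48, adjusted p = 0.00687, and 0.59, adjusted p = 0.00677). Tefm, the elongation factor of mitochondrial transcription, and Rrm2b, a ribonucleotide reductase subunit, rose with hydrogen peroxide (0.69, adjusted p = 0.0301, and 0.65, adjusted p = 0.0302). The medians of that list were 0.04 and 0.20.

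The remaining lists held at most 2 calls in each comparison against vehicle. In fatty acid oxidation, with 19 tested, the carnitine transferase gene Cpt1a fell under both treatments (-0.38, adjusted p = 0.0286, and -0.50, adjusted p = 0.0186), Echs1 rose with interleukin (0.50, adjusted p = 0.00807) and Cpt1c with hydrogen peroxide (0.54, adjusted p = 0.0456), with medians of -0.07 and 0.01. The other 2 Cpt1a probe sets were above 0 under both treatments, at 0.03 to 0.37, and were not called. Of 21 import and dynamics genes, the channel gene Vdac3 rose with interleukin (0.26, adjusted p = 0.0403) and the import receptor gene Tomm20 with hydrogen peroxide (0.37, adjusted p = 0.035), with medians of 0.00 and 0.09. Of 15 partners and regulators of the coactivators, Nrip1, a corepressor known to oppose PGC-1 in fat and muscle, was the only gene called. It read 3840.2 and 3615.6 with interleukin, 3259.0 and 4232.3 with hydrogen peroxide, and 2613.3 and 2207.5 with vehicle, with all treated arrays above vehicle (0.63, adjusted p = 0.0171, and 0.63, adjusted p = 0.0373). None of its other 4 tested probe sets was called, and the next in brightness was at 0.01 with interleukin and -0.38 with hydrogen peroxide. That list's medians were 0.13 under both treatments. Of 35 other assembly factors of the chain, Cox18 rose with interleukin (0.48, adjusted p = 0.0248) and none was called with hydrogen peroxide (medians 0.00 and 0.10).

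**Figure D4:**
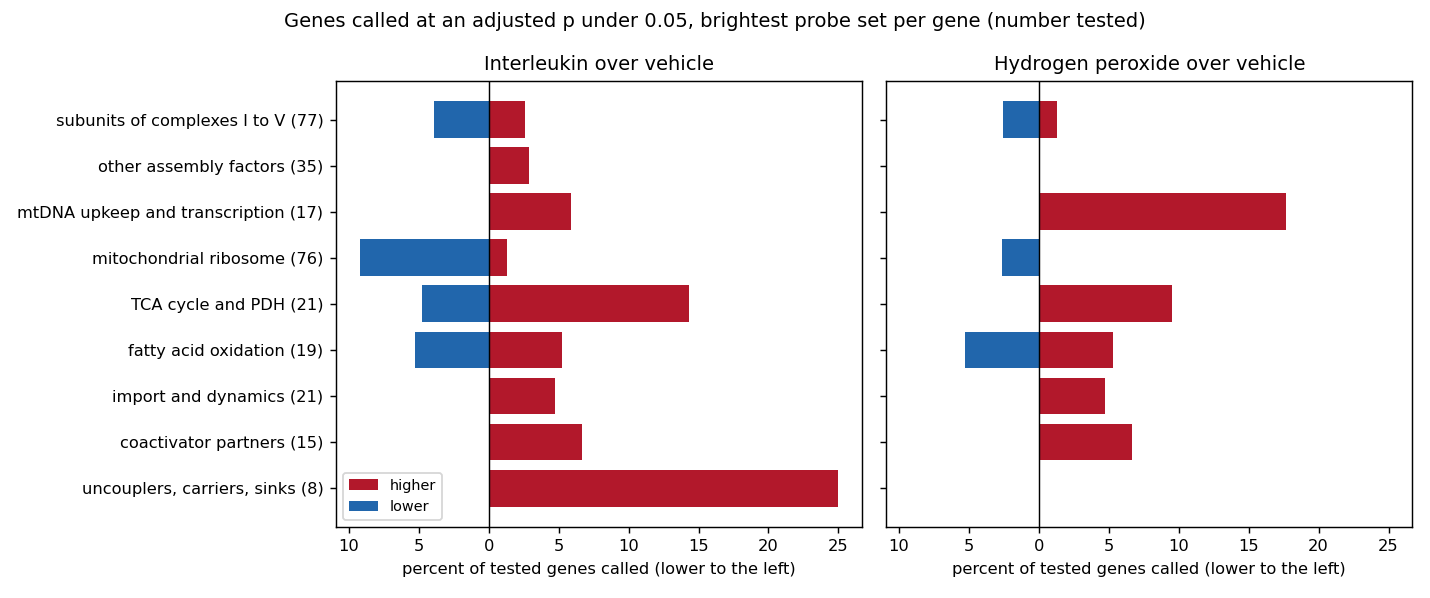
Share of tested genes called higher (right of 0) and lower (left of 0), in percent on the horizontal axis, for the subunits of complexes I to V and 8 other mitochondrial gene lists, with interleukin over vehicle (left panel) and hydrogen peroxide over vehicle (right panel), on the brightest probe set of each gene, with the number tested in brackets. Of the 77 subunit genes, 2 were called higher and 3 lower with interleukin, beside 16.4% of the brightest probe sets of all genes called in either direction. Of 8 uncoupler, carrier and sink genes 2 were called higher, and of 76 ribosomal genes 7 were called lower and 1 higher.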

How the data were processed

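RNA of As4.1 cells from 2 cultures in each group, which the series description calls separate, was hybridised to 6 arrays. The deposited values were probe set intensities made with MAS5, per the submitters' processing notes; its version was not given in the sources used here. The trimmed mean (without the top and bottom 2%) of every deposited array was 1500.01, though no scaling step is recorded. Such an intensity is relative to the other RNA on its array, so a common change in all mRNA cannot be seen.

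Of 45101 probe sets, 64 controls were left out. Intensities were taken to log2 with no pseudocount and no further normalization, and the 22519 probe sets at or above the median mean log2 signal, 193.7 as a geometric mean, were tested. One group-means model was fitted to the 6 arrays with limma 3.58.1 in R 4.3.3 (lmFit, then eBayes with a trend on signal). Tests were two-sided, with Benjamini-Hochberg adjustment over all tested probe sets and a threshold of 0.05, and intervals are 95% intervals from that fit. Every adjusted p given is from limma. Summaries used Python 3.11.15 and pandas 2.3.3. With 2 arrays in each group, their number limits the precision, and the fit has 3 residual degrees of freedom before moderation.

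Symbols came from the array annotation, in which 34958 probe sets had 1 symbol, 932 several and 9160 none besides controls, and all 98 member symbols matched RefSeq. Genes encoded in mitochondrial DNA, Ren1 and Akr1b7 were not analysed here. The members, pathway lists and cell markers were chosen from general knowledge with earlier results of these data known. Named genes were the 7 regulators, every called member, the highest and lowest tested probe set of each complex, the tissue isoforms, and up to 3 called genes of smallest p from each pathway list in each comparison against vehicle. A gene was represented by its brightest probe set, with others given where their call or direction differed.

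On simulated intensities for the 22519 probe sets, compared as interleukin against vehicle, 10 of 50 probe sets changed by a log2 of 0.5 were recovered, 34 of 50 at 1, 46 of 50 at 2 and 49 of 50 at 3, with 11 false calls. The comparison simulated without change gave 0 calls. The changed probe sets were drawn from all signal levels and were few beside the 3627 called with interleukin in the data. The adjusted threshold was therefore stricter in the simulation, and the recovered shares do not apply to the members, most of which are bright. Alternatives covered the scaling (quantile normalization or 75th percentile centring), the pseudocount (32), the filter (none, or the 60th percentile), eBayes (no trend, or robust) and the arrays (only the 4 compared, each left out in turn, or the replicate number as a block). The last ones left out sets with IDs ending in _x_at or _s_at, or kept only the brightest set of each gene. Whether equal replicate numbers pair arrays was checked by correlating their deviations from the group means, which gave 0.11 for hydrogen peroxide and vehicle, 0.05 for interleukin and vehicle and -0.13 for interleukin and hydrogen peroxide. These numbers were not treated as pairs.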

Additional observations from a re-analysis of the deposited data

How the results depend on the processing

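Across the alternatives tried for each named member, 785 of 912 values kept both direction and call, 109 lost the call, 4 gained one and 14 changed sign, none of these 14 a called member. An uncalled member that stayed uncalled counts here as kept, and all 109 losses fall on members called as reported. For those members, the alternatives other than leaving out 1 array kept the call in 173 values and lost it in 48. Leaving out 1 array lost a larger share of their calls. Cox6a2 kept its call in all 17 alternatives under each treatment, with adjusted p up to 0.015 with interleukin and 0.0326 with hydrogen peroxide. Ppargc1b and the dimmer Gabpa probe set did so with interleukin in all 16 alternatives in which each was tested. The stricter filter removed Ppargc1b as too dim, and keeping only the brightest set of each gene removed this Gabpa set. The count of members called with interleukin against vehicle, 14 as reported, was 6 with no filter, 3 with eBayes without a trend and 9 with the brightest probe set of each gene, and 4 to 14 when single arrays were left out. With hydrogen peroxide against vehicle, 4 as reported, it was 1 with no filter, 7 with the stricter filter, 1 without a trend, 9 with only the 4 arrays compared, 8 with the brightest probe sets, and 1 to 9 without single arrays. Between the treatments, 3 as reported, it was 5 after quantile normalization, 7 with the brightest probe sets, 0 with no filter, without a trend and with only the 4 arrays compared, and 0 to 4 without single arrays. The replicate block gave 11, 3 and 5 calls in these 3 comparisons, and Atp5g1, Atp5j2 and Sdhb with interleukin and Esrra with hydrogen peroxide lost their calls under it. Over all probe sets, 3627 calls with interleukin became 1783 without a trend and 2128 with the brightest probe sets, of which fewer were tested. The 1282 calls with hydrogen peroxide became 762 with no filter, 57 without a trend and 235 to 1751 without single arrays, and the 1987 calls between the treatments became 716 without a trend and 839 without hydrogen peroxide array 2. The medians of the complexes moved as follows, with ranges for leaving out single arrays, in which complex I turned above 0 without interleukin array 1 and without hydrogen peroxide array 2. With interleukin they spanned -0.088 to 0.0041 for complex I, -0.27 to -0.13 for complex II, -0.27 to -0.11 for complex III, -0.098 to 0.064 for complex IV and -0.20 to -0.12 for complex V, and the brightest probe sets gave -0.13 for complexes III and V, as did leaving out probe sets matching several transcripts for complex V. With hydrogen peroxide they spanned -0.11 to 0.010 for complex I, -0.24 to 0.029 for complex II, -0.16 to -0.032 for complex III, -0.094 to -0.015 for complex IV and -0.20 to -0.096 for complex V. There the brightest probe sets gave -0.029 for complex III, complex IV was 0.00016 after quantile normalization, -0.14 with 75th percentile centring and -0.048 with no filter, and complex V was -0.088 after quantile normalization. Between the treatments the ranges were -0.074 to 0.075 for complex I, -0.14 to 0.0089 for complex II, -0.13 to 0.033 for complex III and -0.076 to 0.040 for complex V, which was -0.067 after quantile normalization. Among uncalled members, leaving out single arrays with interleukin took the brighter Gabpa probe set over -0.0074 to 0.13, a dim Ndufab1 set over -0.90 to 0.11, Nrf1 sets over -0.40 to 0.28 and -0.44 to 0.51, Pprc1 over -0.18 to 0.11 and the dimmer Tfam set over -0.37 to 0.063. With hydrogen peroxide it took Nrf1 sets over -0.20 to 0.032 and -0.81 to 0.29, Pprc1 over -0.0087 to 0.047 and Tfam over -0.35 to 0.082, and Pprc1 was -0.031 with 75th percentile centring. Causes of these differences were not tested, other than that leaving out an array leaves its group with 1, whose spread is then taken from the others. Dim probe sets had the widest ranges, and changes under about 1.5-fold passed or missed the threshold with the choice of arrays. So did the larger change of Esrra with hydrogen peroxide.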
